A study of Schizosaccharomyces pombe with 4 samples.

Results

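The genes of the origin recognition complex (ORC, 6 subunits) and of GINS (4 subunits) were examined on both strands in fission yeast carrying a mutant allele of spt6 and in wild type. Spt6 is a histone chaperone that travels with RNA polymerase II. The 10 genes were taken by name: orc1, orc2, orc3, orc4, orc5 and orc6 for ORC, and sld5, psf1, psf2 and psf3 for GINS. All 10 are in the deposited table, out of 7023 annotated features and 5134 protein-coding genes. The complexes were chosen by earlier results of these same libraries, in which the sense RPKM of psf3 and the antisense RPKM of orc1 had stood out. The sense and antisense changes of the 10 genes are therefore given as a description and not as a test. The mutant group was the prototrophic strain carrying the allele spt6-1, and its control was a prototrophic wild type (WT), with 2 libraries each. Both strains grew in YES medium at 30 °C and were moved to 37 °C for 2 h, so the controls also carry the temperature shift. Neither the lesion in spt6-1 nor whether the libraries came from separate cultures is given in the sources used here, so any p-value here reflects library-to-library spread alone, and that spread may be technical.

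ORC is the protein machine that marks the places where DNA replication can begin. Together with Cdc18 and Cdt1 it loads the Mcm2-7 helicase onto DNA. GINS joins the loaded helicase together with Cdc45 when an origin fires, and the resulting CMG complex unwinds DNA ahead of the polymerases. Fission yeast ORC binds AT-rich DNA through AT-hook motifs in Orc4. The subunits act as complexes, so their genes give a view of how RNA levels of partners differ from each other.

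Libraries held 16894607 to 39693042 reads on the sense strand and 2231131 to 5672959 on the antisense strand, recovered from the deposited RPKM (reads per kilobase of feature, scaled to library size). The ribosomal RNA share was 17.8% and 3.73% in the spt6-1 libraries (replicates 1 and 2), and 12.8% and 6.43% in the WT libraries. The share differed between replicates as well as between groups, and its part in the results was not tested. The spt6 transcript had 12.7 and 8.32 RPKM in spt6-1 and 65.5 and 61.6 RPKM in WT. Strands were kept apart well. The ribosomal protein gene rpl2701, 1052 bases from orc2, had 6 and 4 antisense reads beside 14792 and 10183 sense reads in spt6-1. In WT it had 0 in both libraries beside 51722 and 20241 sense reads, which allows a share of up to 0.0058% and 0.0148%. These limits cover counting error only.

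The antisense RNA over orc1 is annotated as SPNCRNA.1529, which starts inside the last exon of orc1 and runs back over its coding part. The first sequence shows where its annotation begins, within orc1's coding sequence and 168 bases before that sequence ends. No start of the RNA was measured in these libraries, and some antisense reads lay outside the annotated span, as given below. Capitals mark the first 60 annotated bases of SPNCRNA.1529 and lower case the 100 bases before it. It is read from RefSeq's ASM294v3, minus strand, chrII:2573110-2573269.
SPNCRNA.1529 start: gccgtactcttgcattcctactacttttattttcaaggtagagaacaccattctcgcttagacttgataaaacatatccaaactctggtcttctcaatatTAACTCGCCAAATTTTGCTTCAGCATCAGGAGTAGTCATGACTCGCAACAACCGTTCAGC

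The authors also deposited a list of splice junctions, which was not itself used to choose the genes. It may not be independent of that choice. Junctions may be found more often where reads are many, and orc1 was chosen for its antisense RPKM. That list is named as one for the aligner TopHat. It gives positions and strands but no library and no read counts, so it cannot be set against the groups. Whether any listed junction was spliced in these libraries was not tested. Inside orc1 it holds the annotated intron, 1 further junction on the sense strand and 7 junctions on the antisense strand. All 7 lie between positions 2572030 and 2572135 of chromosome II, around the place of orc1's own intron. The sense intron and 3 of the listed antisense introns that overlap it are shown to compare their ends. Capitals mark the first and last 2 bases (GT and AG in the usual intron).
orc1 intron, plus strand, chrII:2572049-2572100: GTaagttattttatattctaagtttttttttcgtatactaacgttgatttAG
antisense intron, minus strand, chrII:2572033-2572090: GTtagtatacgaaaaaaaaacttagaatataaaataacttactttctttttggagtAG
antisense intron, minus strand, chrII:2572033-2572135: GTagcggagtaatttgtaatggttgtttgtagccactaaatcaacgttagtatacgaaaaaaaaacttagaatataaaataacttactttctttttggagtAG
antisense intron, minus strand, chrII:2572086-2572135: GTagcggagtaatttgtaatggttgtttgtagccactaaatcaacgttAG

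The 7 listed antisense introns of orc1 were 50 to 103 bases long, with 3 positions for the 5′ end and 5 for the 3′ end. Each had GT and AG ends on the antisense strand, as did 95.8% of all listed junctions that match no annotated intron. Their ends differ from those of the sense intron, whose mirror image would not read GT to AG. The list may have been built from such ends, so nothing about splicing on the antisense strand is read from them. More opposite-strand junctions than in orc1 were listed in 4 of 5134 protein-coding genes, and 8 genes including orc1 held 7. Since orc1 was chosen for its antisense RPKM, this place is a description and not a test. The highest count was 14.

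**Figure D1:**
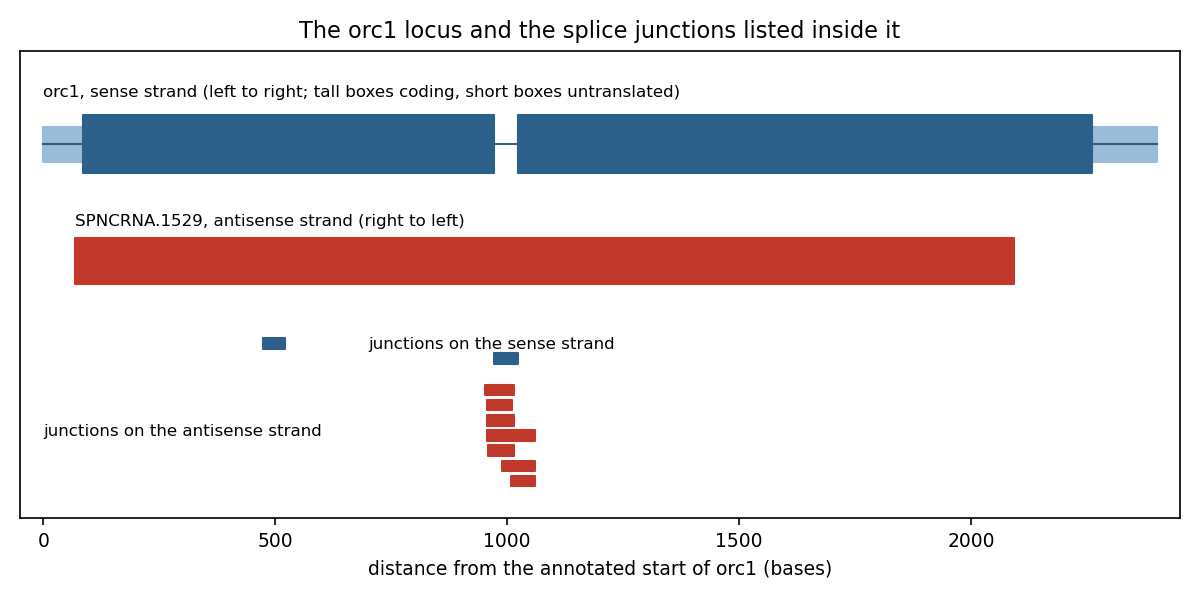
The orc1 locus drawn to scale, with distance from the annotated start of orc1 in bases on the x axis. Blue boxes are orc1 (pale where untranslated) and the junctions listed on its strand, red boxes SPNCRNA.1529 and the junctions on the opposite strand. The 7 antisense junctions all sit around the orc1 intron.

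Opposite-strand junctions were listed in 6 of the 10 genes, against 31.8% of protein-coding genes. Nothing is read from this count, since antisense RPKM helped to choose the genes. The orc3 locus had 3, orc4 had 2, and orc2, orc5 and psf3 had 1 each, while orc6, sld5, psf1 and psf2 had none wholly inside them. All 15 had GT and AG ends. Every annotated intron of the 10 genes was in the list, 1 each in orc1, orc3 and orc6, 2 in orc5 and 4 in psf3. For psf3, the list also held a second, nearer 3′ end for the intron closest to the gene's end. That pair is printed because the inner AG falls within the annotated intron.
psf3 annotated intron, minus strand, chrI:528065-528123: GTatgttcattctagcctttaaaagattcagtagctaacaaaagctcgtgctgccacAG
psf3 alternative, minus strand, chrI:528080-528123: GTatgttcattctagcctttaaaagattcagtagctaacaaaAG
psf3 antisense intron, plus strand, chrI:528279-528333: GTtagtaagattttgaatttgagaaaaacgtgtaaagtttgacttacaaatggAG
The listed antisense intron of psf3 overlaps the sense intron at chrI:528270-528325, again with its own GT and AG ends.

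Besides orc1 and psf3, whose places are given below, the annotation of the deposited table puts most of these genes on chromosome II. On its plus strand are orc2 (SPBC685.09, 2781831 to 2783676), orc4 (SPBP23A10.13, 2025363 to 2028676), orc6 (SPBC2A9.12, 2967218 to 2968262) and psf1 (SPBP23A10.09, 2015416 to 2016296). On its minus strand are orc5 (SPBC646.14c, 952334 to 954505), sld5 (SPBP4H10.21c, 2913472 to 2914333) and psf2 (SPBC725.13c, 1228148 to 1229239). The orc3 gene (SPAC3H1.01c, 1928771 to 1931267) is on the minus strand of chromosome I.

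The sense levels of partners in a complex were far apart in both strains. In spt6-1, sld5, the GINS subunit gene after which the Psf proteins (partners of Sld5) were named, was highest at 129.3 and 117.2 RPKM. The orc1 gene at 38.1 and 43.2 RPKM and orc2 at 34.0 and 40.6 RPKM came next and overlapped. The psf3 gene was at the bottom at 7.42 and 6.28 RPKM, overlapping orc5 at 7.23 and 13.3 RPKM, with orc6 at 10.1 and 14.1 RPKM.

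In WT, sld5 was again highest, at 102.0 and 110.5 RPKM, and orc2 followed at 45.3 and 33.9 RPKM. The psf3 and psf1 genes lay at 33.5 and 33.2 and at 28.4 and 28.2 RPKM. Below them orc4 at 23.3 and 25.1, orc1 at 25.03 and 22.5, and psf2 at 24.7 and 22.3 RPKM overlapped and cannot be ranked among themselves. The orc3 gene had 20.1 and 21.1 RPKM, and orc5 at 12 and 13.5 and orc6 at 11.5 and 11.7 RPKM lay below the other 8. The genes whose place differed most between the strains were orc1, which stood higher in spt6-1, and psf3, which stood lower.

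**Figure D2:**
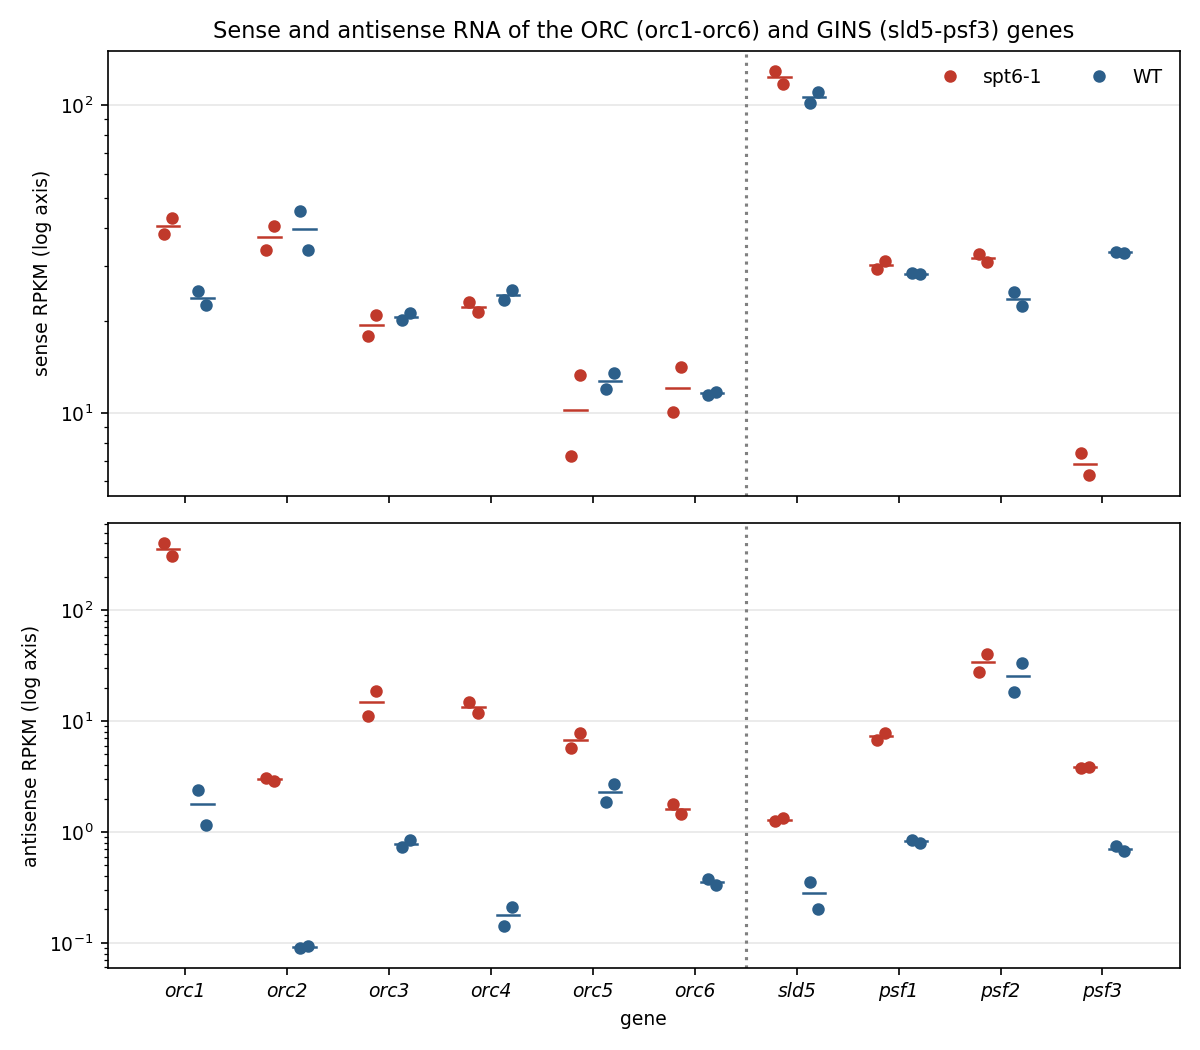
Sense (top) and antisense (bottom) RPKM on log axes for the 10 genes, with 1 point per library, spt6-1 in red and WT in blue, and bars at the mean of 2. On the sense strand psf3 is low in both spt6-1 libraries (7.42 and 6.28 RPKM), and on the antisense strand orc1 reaches 401.8 and 306.4 RPKM in spt6-1.

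The sense change of spt6-1 against WT was small for most of these genes. Values were fitted as log2(RPKM + 0.5) across all features with limma, and a change counted as called at a Benjamini-Hochberg adjusted p under 0.05. In that fit 1 of the 10, orc1, was past the threshold in the higher direction and 1, psf3, in the lower direction. Over protein-coding genes 12.1% were called higher, 8.2% lower and 20.3% either way, and over all features 28.5%. Nothing is read from the count of 2, since these changes chose the genes. The median change of the 10 genes was -0.02 on the log2 scale, beside 0.03 over the 5060 protein-coding genes tested. All 10 genes passed the filter on low sense values.

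The psf3 gene (SPAC227.16c, chromosome I, 527782 to 528906, minus strand), which encodes a core subunit of GINS, had 7.42 and 6.28 sense RPKM in spt6-1, from 178 and 93 reads, and 33.5 and 33.2 in WT, from 1030 and 490 reads. The groups lie far apart, and the spread within each is small. The means were 6.85 ± 0.80 RPKM in spt6-1 and 33.4 ± 0.16 RPKM in WT (SD, n = 2 each), 4.87-fold lower in spt6-1. The log2 change was -2.21 with a standard error (SE) of 0.18, the third lowest of 5060 protein-coding genes, and it ran from -2.70 to -2.10 over 14 alternative settings. With any 1 library left out it ran from -2.32 to -2.10. These values are a description and not a test, since the genes were chosen by psf3 sense RPKM.

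Its 3 partners in GINS were not past the threshold. The sld5 gene had a sense log2 change of 0.21 (SE 0.23) and psf1, whose product contacts DNA polymerase epsilon in budding yeast, one of 0.10 (SE 0.18). The psf2 gene had 32.9 and 30.9 RPKM in spt6-1 and 24.7 and 22.3 RPKM in WT, a change of 0.44 (SE 0.19). The 95% intervals of these changes run from -0.33 to 0.76 for sld5, from -0.34 to 0.53 for psf1 and from -0.01 to 0.88 for psf2. The interval of psf3 runs from -2.64 to -1.78 and is given as a description, since the genes were chosen by its sense RPKM.

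The orc1 gene (SPBC29A10.15, chromosome II, 2571077 to 2573477, plus strand), which encodes an ATPase subunit of ORC, had 38.1 and 43.2 sense RPKM in spt6-1 and 25.03 and 22.5 RPKM in WT. Both mutant libraries lay above both WT libraries. The log2 change was 0.76 (SE 0.19), and this call ended with any 1 of the 4 libraries left out (changes of 0.67 to 0.85) and with each of the 3 other library scalings (0.59 to 0.64). The 5 other ORC genes had sense log2 changes of -0.36 for orc5 (SE 0.29), -0.13 for orc4 (SE 0.18), -0.09 for orc3 (SE 0.18), -0.08 for orc2 (SE 0.23) and 0.04 for orc6 (SE 0.21). The orc4 gene had 23.0 and 21.3 RPKM in spt6-1 and 23.3 and 25.1 RPKM in WT. The sign of the orc2, orc3, orc5 and orc6 changes, and of psf1, flipped under some of the 14 settings. The spt6-1 libraries of orc5, at 7.23 and 13.3 RPKM, stood further apart than its groups did.

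Where along orc1 the extra sense reads fell can be worked out, because SPNCRNA.1529 lies wholly inside it and the reads opposite SPNCRNA.1529 are sense reads of orc1. Within its 2025 bases, orc1's sense level was 23.8 and 31.8 RPKM in spt6-1 and 23.5 and 22.0 RPKM in WT. In the remaining 376 bases, 68 at the start and 308 at the end of the gene, it was 109.9 and 98.5 RPKM in spt6-1 (1157 and 640 reads) and 29.8 and 21.6 RPKM in WT (403 and 140 reads). The 2 groups were close inside the span, and outside it spt6-1 was well above WT. The split is the difference of 2 deposited values, reads crossing an edge may count on either side, and any reads in the orc1 intron count as inside, so the outer level is approximate. Start and end of the gene cannot be told apart in this split.

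**Figure D3:**
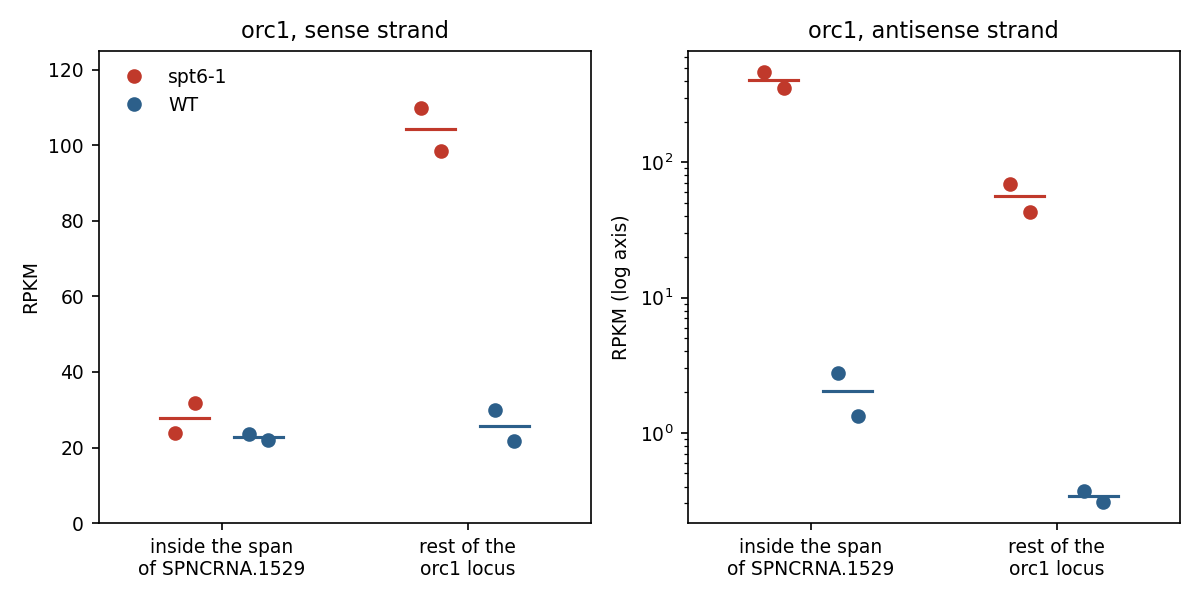
RPKM of orc1 inside the 2025 bases of SPNCRNA.1529 and in the other 376 bases of the locus, for the sense strand (left, linear axis from 0) and the antisense strand (right, log axis), with 1 point per library and bars at the mean of 2. On the sense strand the groups separate widely in the outer bases, with 109.9 and 98.5 RPKM in spt6-1 and 29.8 and 21.6 RPKM in WT.

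Antisense RNA was higher in spt6-1 over 9 of the 10 genes, all but psf2. In the fit over protein-coding genes 9 of 10 were past the threshold in the higher direction, beside 81.9% of the 4728 protein-coding genes tested, with 1.65% lower and 83.5% either way. Nothing is read from this count. The median protein-coding gene changed by 1.58 on the log2 scale and the median of the 10 by 2.20. After centring each library on its median antisense value, 4 of the 10 were called higher and 4 lower, and over all genes 961 were higher and 2406 lower (median change -0.51), against 3872 and 78 with the authors' scaling. Quantile normalization gave 5 higher and 2 lower of the 10, and 1316 and 1494 over all genes. All 10 passed the filter on low antisense values, but orc2, orc4, orc6 and sld5 reached it in the spt6-1 libraries only, and these 4 had to differ to be tested. The scaling therefore sets whether some of these genes count as higher or lower.

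At orc1 the antisense level was 401.8 and 306.4 RPKM in spt6-1, from 27005 and 12706 reads, and 2.40 and 1.16 RPKM in WT, from 207 and 48 reads. The means were 354.1 ± 67.5 RPKM in spt6-1 and 1.78 ± 0.88 RPKM in WT (SD, n = 2 each), a 199-fold ratio. The log2 change of 7.32 (SE 0.29) was the highest of the 4728 protein-coding genes tested with the pseudocount of 0.5, where spt6 itself had 6.06. This order depends on that choice, since spt6 stood higher with a pseudocount of 0.1 (7.97, against 7.63 for orc1) and with voom (9.49, against 7.62), and its RPKM means differed 850-fold. Over the 14 settings it ran from 5.23 (median centring) to 7.72 (WT replicate 1 left out). Of these antisense reads, 97.3% and 97.8% in spt6-1 and 97.6% and 95.8% in WT lay in the span of SPNCRNA.1529. In the other 376 bases antisense RNA was 69.4 and 43.0 RPKM in spt6-1 and 0.37 and 0.31 RPKM in WT, from only 5 and 2 WT reads. The neighbours of orc1 did not show antisense RNA of that size. On the left side, rec8, the meiotic cohesin gene, had 8.60 and 8.60 antisense RPKM in spt6-1 and 1.48 and 1.19 RPKM in WT, and on the right SPBC29A10.17 had 27.4 and 31.5 RPKM in spt6-1 and 26.7 and 22.5 RPKM in WT.

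The orc4 gene, which encodes the DNA-binding AT-hook subunit, came next at 15.0 and 11.9 antisense RPKM in spt6-1 and 0.14 and 0.21 RPKM in WT, a log2 change of 4.36 (SE 0.22). It is transcribed towards ell1, an elongation factor gene, and the 2 overlap by 67 bases. If ell1 reads were spread evenly, 211 and 152 of them would fall in that overlap in spt6-1, beside 1391 and 683 antisense reads measured over orc4. In WT the even share would be 104 and 57 reads, yet only 17 and 12 antisense reads were measured over the whole of orc4. Reads of ell1 in the overlap cannot be told apart from antisense RNA of orc4. The sense RNA of ell1 was itself higher, with 120.8 and 140.7 RPKM in spt6-1 and 46.6 and 53.1 RPKM in WT (limma adjusted p 0.00542, past the threshold with any 1 library left out).

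The orc3 gene, whose product binds Orc2 in the body of ORC, had 11.2 and 18.9 antisense RPKM in spt6-1 and 0.72 and 0.84 RPKM in WT, with a log2 change of 3.55 (SE 0.26). No other annotated feature overlaps it. The orc2 gene had 3.10 and 2.89 antisense RPKM in spt6-1 and 0.09 and 0.09 RPKM in WT, a log2 change of 2.56 (SE 0.19), with only 6 and 3 reads in WT. Antisense RNA of both genes was higher in each spt6-1 library than in any WT library. For orc2 the filter had fixed this, since orc2 reached it in the spt6-1 libraries only.

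The orc5 and orc6 genes changed less, by 1.39 (SE 0.24) and 1.301 (SE 0.20) on the log2 scale, a little below the median gene at 1.58. With median centring, where the median gene was at -0.51, they were -0.70 and -0.79. The orc5 gene, for another ATPase-family subunit, had 5.76 and 7.86 antisense RPKM in spt6-1 and 1.85 and 2.73 RPKM in WT. The orc6 gene, for the smallest subunit, had 1.78 and 1.44 RPKM in spt6-1 and 0.37 and 0.33 RPKM in WT. Within ORC the antisense change thus ran from 1.301 to 7.32. Of the 6 genes, orc2, orc4 and orc6 reached the antisense filter in the spt6-1 libraries only and had to differ to be tested.

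Among GINS genes, psf1 had the largest antisense change, with 6.73 and 7.82 RPKM in spt6-1 and 0.85 and 0.79 RPKM in WT (log2 2.55, SE 0.20). Its left neighbour alp5, which encodes an actin-related protein of chromatin complexes, had 78.5 and 65.8 antisense RPKM in spt6-1 and 1.13 and 0.81 RPKM in WT. The sld5 gene, the most abundant on the sense strand, had the lowest antisense level of the 10 in spt6-1, at 1.24 and 1.34 RPKM, against 0.355 and 0.202 RPKM in WT (log2 1.21, SE 0.19, and -0.88 with median centring). Its 3′ end overlaps nhm1 by 61 bases, and its antisense reads were few, 30 and 20 in spt6-1 and 11 and 3 in WT. Spread evenly, nhm1 reads in the overlap would number 24.3 and 18.7 in spt6-1 and 37.5 and 17.9 in WT. These equal 81.0% and 93.3% of the sld5 antisense reads in spt6-1 and exceed those measured in WT, so reads of nhm1 cannot be told apart from antisense RNA of sld5.

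Antisense RNA of psf2 was high in every library, at 27.9 and 40.6 RPKM in spt6-1 and 18.4 and 33.1 RPKM in WT. The groups overlapped, and psf2 was the 1 gene not past the threshold (log2 0.44, SE 0.30). With WT replicate 2 left out the change was 0.85, and with spt6-1 replicate 1 left out 0.70, past the threshold both times. With WT replicate 1 left out it was 0.02, and with spt6-1 replicate 2 left out 0.17. The fit with a replicate block also called it higher, and median centring called it lower, at -1.65. The plus-strand genes nbl1 and arg6 overlap psf2 by 160 and 87 bases at its ends, and their reads there count as antisense to psf2. Spread evenly, arg6 would give 149 and 109 such reads in spt6-1 and 249.6 and 111 in WT, and nbl1 44.8 and 24.9 in spt6-1 and 41.6 and 17.3 in WT. The antisense reads measured over psf2 were 853 and 765 in spt6-1 and 721 and 622 in WT. The nearest gene on the left, php2, for a subunit of the CCAAT-binding factor, had 205.3 and 227.7 antisense RPKM in spt6-1 and 69.0 and 119.0 RPKM in WT.

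The psf3 antisense level was 3.81 and 3.86 RPKM in spt6-1 and 0.74 and 0.67 RPKM in WT, a log2 change of 1.85 (SE 0.21) that is near the median gene and -0.25 with median centring. The antisense reads numbered 120 and 75 in spt6-1 and 30 and 13 in WT. SPNCRNA.659, which RefSeq gives the synonym psf3-antisense-1, covers 760 bases of psf3 from the opposite strand. Its own level was 3.55 and 3.17 RPKM in spt6-1 and 1.35 and 1.10 RPKM in WT (limma adjusted p 0.0151, a call that held only without WT replicate 1 among the libraries left out, and a log2 change of -0.05 after quantile normalization). With the authors' scaling the antisense change of psf3 ranked 1929 of 4728. Whether it bears on the sense fall of psf3 was not tested.

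**Figure D4:**
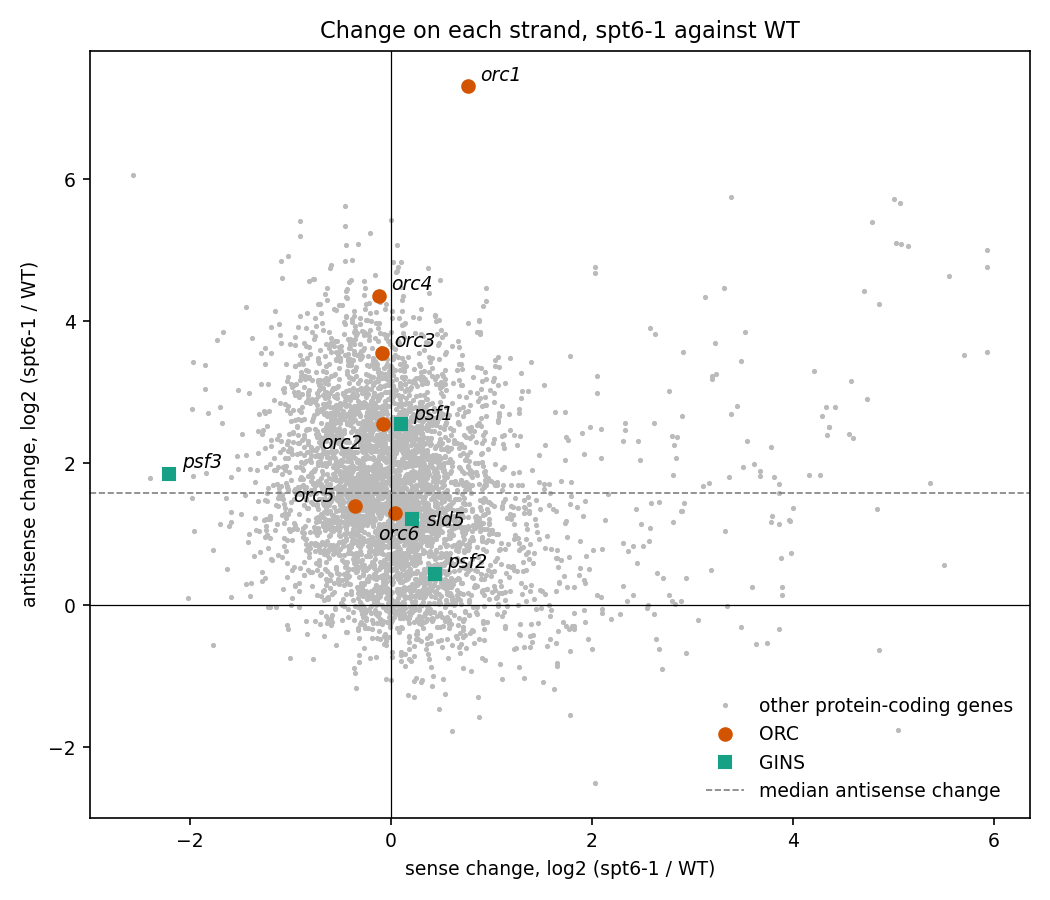
Antisense against sense log2 change of spt6-1 over WT for protein-coding genes tested on both strands, with ORC in orange, GINS in green, the others in grey and the median antisense change dashed. The orc1 gene lies at the top (antisense 7.32) and psf3 at the left (sense -2.21), and the other 8 lie inside the cloud.

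The balance of strands at each locus combines both changes. At orc1, antisense RPKM was 10.5 and 7.10 times the sense RPKM in spt6-1, against 0.10 and 0.05 times in WT, and it was the only 1 of the 10 with more antisense than sense in both spt6-1 libraries. At psf3 the ratio was 0.51 and 0.61 in spt6-1 and 0.02 and 0.02 in WT, and at psf2 it was 0.85 and 1.31 in spt6-1 and 0.74 and 1.49 in WT. The log2 change of the ratio was 6.56 (SE 0.32) for orc1, 4.49 (SE 0.26) for orc4, 4.05 (SE 0.26) for psf3 and 3.65 (SE 0.28) for orc3, against a median of 1.59 over 4682 genes. It was past the threshold in the higher direction for 9 of 10, beside 71.7% of protein-coding genes (6.04% lower and 77.7% either way). The exception was again psf2 at 0.003 (SE 0.37). Of the 9, orc2, orc4, orc6 and sld5 reached the antisense filter in the spt6-1 libraries only. Nothing is read from this count. With median centring 889 genes were higher and 1977 lower, and with quantile normalization 1178 and 1197, against 3355 and 283 with the authors' scaling.

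**Figure D5:**
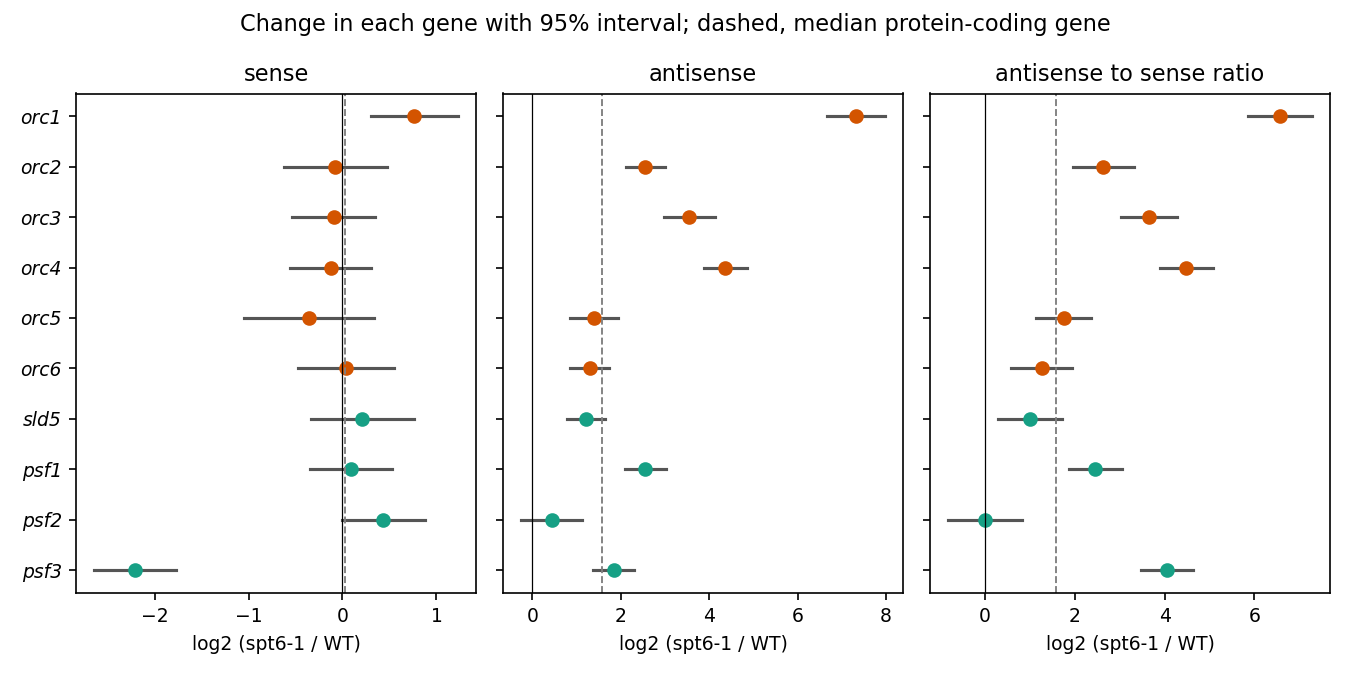
Log2 change of spt6-1 over WT for the 10 genes on the sense strand, the antisense strand and in the ratio of antisense to sense. Points are limma estimates, bars their 95% intervals, and the dashed line the median protein-coding gene. On the sense strand the intervals of orc1 and psf3 leave out 0 and those of the other 8 hold it. On the antisense strand orc5, orc6, sld5 and psf2 lie below the dashed line.

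Around the 10 genes 27 other features overlap or adjoin them. Of the 26 tested on the sense strand 5 rose and 2 fell, beside 21.8% and 6.67% of all 6547 features (1426 and 437, or 801 and 998 after quantile normalization). Those that rose were SPNCRNA.1529, SPNCRNA.659, ell1, css1 and the snoRNA gene snoZ3, and those that fell were rpl2701 and ura5. The rise of SPNCRNA.1529 is the orc1 antisense signal again, by which the genes were chosen. It holds 97.3% and 97.8% of those reads in spt6-1. The snoZ3 gene lies inside SPNCRNA.659 on the same strand and had only 14 and 6 reads in spt6-1 and 5 and 1 in WT. Its rise was not called with no filter, with voom or after quantile normalization. The falls of rpl2701 and ura5 lost their call with any 1 library left out, css1 lost it without WT replicate 1 or spt6-1 replicate 1, and snoZ3 without spt6-1 replicate 1. Of the 19 protein-coding neighbours tested on the antisense strand 17 rose and none fell (0 lower also at an unadjusted p under 0.05 by limma), beside 81.9% higher over all protein-coding genes. Nothing is read from this count. Among the 17, css1, SPAC3H1.02c, frg1, sds23, SPBC646.15c, nhm1, SPBP4H10.19c, SPBC1703.01c, ura5 and SPAC227.17c reached the filter in the spt6-1 libraries only. These had to differ to be tested. With median centring 961 genes were higher and 2406 lower over all genes.

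Over the 8 values of each gene (log2 of RPKM + 0.5, both strands, 4 libraries), the genes with the smallest Euclidean distance to psf3 were SPAC2H10.01 (1.23), SPAC4G8.07c (1.23) and SPBC28E12.04 (1.25). In SPAC4G8.07c sense RNA was 10.1 and 6.81 RPKM in spt6-1 and 22.9 and 18.2 RPKM in WT. No gene lay as near to orc1. Its closest were SPBC19C2.10 (3.34), alp5 (3.86) and SPAC22G7.05 (3.97), and SPBC19C2.10 had 79.8 and 65.8 antisense RPKM in spt6-1 and 3.69 and 2.10 RPKM in WT.

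Among 15 other factors that license or fire origins, 4 fell on the sense strand and none rose, beside 8.2% of protein-coding genes lower. At an unadjusted p under 0.05 in limma these counts were 6 and 0. The gene cdc23, which encodes Mcm10, had 5.95 ± 0.40 RPKM in spt6-1 and 13.4 ± 0.84 RPKM in WT (limma adjusted p 0.00523). The helicase subunit gene mcm6 had 12.4 ± 0.47 RPKM in spt6-1 and 24.1 ± 1.86 RPKM in WT (adjusted p 0.00979), and both calls held with any 1 library left out. The genes cdc45, for the third partner in CMG, and mcm3 also fell, with log2 changes of -0.78 and -0.79 (adjusted p 0.0177 and 0.0219), and both calls ended with any 1 library left out. The licensing genes cdc18 and cdt1 were not past the threshold, at 0.49 (SE 0.25) and -0.64 (SE 0.26). On the antisense strand 9 of 14 tested rose and none fell (9 and 0 at an unadjusted p under 0.05), beside 81.9% of protein-coding genes higher, and with median centring 1 rose and 7 fell. Of the 9, 5 reached the filter only through the spt6-1 libraries and had to differ to be tested, mcm4, mcm7, drc1 and dfp1 among them. The cdc45 gene reached it in WT too, with 10.3 ± 0.07 antisense RPKM in spt6-1 and 2.45 ± 0.51 RPKM in WT (limma adjusted p 1.90e-05). The list's medians were -0.31 on the sense strand and 1.61 on the antisense strand.

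Of 31 replication fork factors 7 fell on the sense strand and none rose (11 and 1 at an unadjusted p under 0.05 in limma), beside 8.2% of protein-coding genes lower and 12.1% higher. The count of 7 was 1 with no filter, 2 without the trend and 0 to 3 with 1 library left out. Among them were the fork protein gene mcl1 (log2 -0.82, limma adjusted p 0.0147), the clamp loader genes rfc5 (-0.93, 0.0266) and rfc3 (-0.66, 0.0311), and the polymerase genes cdc6 (-0.66, 0.0346) and pol1 (-0.63, 0.0368). Most of these calls rest on all 4 libraries. Those of rfc3, cdc6 and pol1 were lost with any 1 library left out, mcl1 passed without WT replicate 2 only, and rfc5 passed without WT replicate 2 or spt6-1 replicate 2. On the antisense strand 25 of 29 tested rose, beside 81.9% of protein-coding genes, and with median centring 9 rose and 10 fell. The 1 gene that fell, ssb2 (limma adjusted p 0.0186), lost its call without WT replicate 1 or spt6-1 replicate 2. Of the 25, 15 reached the filter only through the spt6-1 libraries and had to differ to be tested, among them dna2, cdc20 and the topoisomerase gene top1 (19.3 ± 0.54 antisense RPKM in spt6-1 and 0.21 ± 0.01 RPKM in WT). The rfc5 and rad2 genes reached it in WT too, and rfc5 had 10.3 ± 1.15 RPKM in spt6-1 and 0.85 ± 0.29 RPKM in WT. The list's medians were -0.27 and 2.08.

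Among 8 G1-S transcripts under the MBF factor, which are made as cells enter S phase and include cdc18 and cdt1, cdt2 rose (61.9 ± 12.6 RPKM in spt6-1 and 34.2 ± 0.86 RPKM in WT, limma adjusted p 0.034) and the cyclin gene cig2 fell (10.6 ± 1.46 RPKM in spt6-1 and 20.6 ± 4.66 RPKM in WT, adjusted p 0.0241). On the sense strand 1 thus rose and 1 fell, beside 12.1% of protein-coding genes higher and 8.2% lower. At an unadjusted p under 0.05 in limma these counts were 3 and 2. Nothing is read from these counts. The calls of cdt2 and cig2 depend on the libraries used. That of cdt2 passed without spt6-1 replicate 1 only, and that of cig2 without WT replicate 1 or spt6-1 replicate 2 only. On the antisense strand 4 of 8 rose, namely suc22, mik1, cig2 and cdc22, beside 81.9% of protein-coding genes. With median centring 1 rose and 4 fell, and mik1, cig2 and cdc22 changed sign. The suc22 and mik1 genes reached the filter only through the spt6-1 libraries and had to differ to be tested. The list's medians were 0.46 on the sense strand and 1.02 on the antisense strand. Changes in the share of cells in S phase and changes in RNA per cell cannot be told apart in these bulk libraries.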

How the data were processed

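Polyadenylated RNA from 4 libraries, 2 spt6-1 and 2 WT, had been sequenced with the strand kept, per the labels' protocols. Reads were aligned with TopHat to ASM294v2, per the submitters' processing notes, and how reads were counted is not stated there. The authors deposited RPKM per feature and strand. With sense values times summed exon length and antisense values times locus length, 100% gave whole reads (tolerance 0.01 read), with denominators of 27994342 and 17272448 for spt6-1 and 35917252 and 17201744 for WT. The denominator of spt6-1 replicate 1 was 70.5% of its sense reads, against 98.3% to 102.2% elsewhere. A further 4 columns of per-sample values were not used. One read per kilobase equals 0.0278 to 0.0581 RPKM.

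Values were taken as log2(RPKM + 0.5) and fitted with limma 3.58.1 in R 4.3.3 (eBayes with a trend, two-sided, Benjamini-Hochberg over all features tested, threshold 0.05). Fold changes are on that scale, which understates low genes, while ratios of means use RPKM. The sense fit kept features at 1 RPKM in at least 2 libraries, the antisense fit protein-coding genes at 0.5 RPKM in at least 2, and the ratio fit those passing both. The script was tested on simulated data. The members, lists and named-gene rule were chosen with earlier results of these data known. Named genes are the 10, spt6, overlapping and adjoining features, up to 5 called genes per list and strand, and the 3 nearest genes to psf3 and orc1. Genes outside this rule that are named (cdc18, cdt1, ssb2) were chosen after their values were seen.

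The deposited junction list holds genome positions only, which is no measurement of a library. Sequences were read from RefSeq's ASM294v3, in which 5119 of 5123 nuclear coding sequences at the table's positions ran from ATG to a stop. Alternatives were 2 pseudocounts, 2 filters, 3 scalings, no trend, voom, a replicate block and each library left out.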

Additional observations from a re-analysis of the deposited data

How the results depend on the processing

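The fall of psf3 sense RNA and the rise of orc1 antisense RNA kept their direction and passed the threshold under all 14 alternatives, and the sense call of orc1 under 7 of 14. The complexes were chosen by psf3 sense RPKM and orc1 antisense RPKM in these same libraries, so those passes are a description and not a test. With pseudocounts of 0.1 or 1, or voom (each strand), no count of the 10 genes changed except 8 genes with a higher ratio at a pseudocount of 1. With median centring no gene of the 10 was higher on the sense strand (0), 4 were higher and 4 lower on the antisense strand, and 4 higher and 3 lower in the ratio. The reversed log2 changes there were -0.70 for orc5, -0.79 for orc6, -0.88 for sld5, -0.25 for psf3, -0.42 for dfp1, -0.21 for cdc45, -0.33 for mik1, -0.499 for cig2 and -0.69 for cdc22 antisense, and -0.32 for orc5, -0.81 for orc6 and -1.07 for sld5 in the ratio. Over all genes median centring gave 961 and 2406 (antisense) and 889 and 1977 (ratio), and for the lists 1 and 7 (licensing), 9 and 10 (fork) and 1 and 4 (G1-S) antisense, with 0 G1-S genes higher in sense. Quantile normalization gave 801 higher and 998 lower in sense, 1316 and 1494 antisense, and 1178 and 1197 in the ratio. For the 10 genes it gave 0 higher in sense, 5 and 2 antisense, and 4 higher in the ratio. For the lists it gave 11 fork genes lower and 0 and 3 G1-S genes in sense, and 3 and 4, 13 and 4, and 2 and 4 antisense. Its reversed changes were -0.36 for orc5, -0.64 for orc6, -0.63 for sld5, -0.240 for psf3, -0.137 for mik1 and -0.0495 for cdc22 antisense, -0.67 for orc6 and -0.77 for sld5 in the ratio, and -0.0453 for SPNCRNA.659 sense. Scaling by protein-coding reads gave 0 of the 10 genes and 0 G1-S genes higher in sense. The median antisense change was 1.58 with the authors' scaling, -0.51 with median centring and -0.08 after quantile normalization. The cause of these changes was not tested.

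With no filter 256 features were lower in sense, with 1 fork gene lower and 0 and 0 G1-S genes. The stricter filter asks for 2 sense or 1 antisense RPKM in every library, so genes low in either group are no longer tested. It left 822 features higher in sense, 1007 antisense and 779 in the ratio (129 lower). Of the 10 genes 2 were higher antisense and 2 in the ratio, and 3, 5 and 2 list genes were higher antisense. The cause of these counts was not tested. Without the trend 2 fork genes were lower and 2 G1-S genes higher, and the cause was not tested.

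The replicate numbers are shared as numbers only. The deviations of same-numbered libraries correlated at 0.32 (sense) and 0.20 (antisense), from 2 pairs. With the replicate block 1628 features were higher and 582 lower in sense and 3961 and 107 antisense, with 10 of the 10 genes higher antisense, 1 fork gene and 2 G1-S genes higher in sense.

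With 1 library left out, the lone library of its group is taken to vary like the other group. Sense counts were 724 to 1159 higher and 216 to 238 lower, antisense 1671 to 3707 higher, and ratio 1278 to 3220 higher and 129 to 272 lower. For the 10 genes 0 to 0 were higher in sense, 5 to 10 antisense and 5 to 9 in the ratio. Without an spt6-1 replicate only 2683 or 2688 of 4728 genes are tested antisense, and orc2, orc4, orc6 and sld5 no longer reach the antisense filter. Licensing genes lower in sense numbered 2 to 3, fork genes 0 to 3, and G1-S genes 0 to 1 higher and 0 to 1 lower. Antisense rises numbered 12 to 26 for fork genes and 2 to 4 for G1-S genes, with 0 to 1 fork gene lower. Depth limits the WT antisense values of orc2, orc4, orc6 and sld5, which rest on 3 to 17 reads.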
